A study of Mus musculus with 8 samples.

Results

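The 9 genes described here mark B cells and the antibody-secreting plasma cells that B cells become, together with the receptor that carries their antibodies across the epithelium. They were chosen by symbol, as the rows of the count table whose Entrez identifiers belong to Cd79a, Cd79b, Ms4a1, Pou2af1, Mzb1, Jchain, Tnfrsf17, Sdc1 and Pigr, and all 9 were found among 23469 genes. Lung RNA was sequenced from C57BL/6 wild type mice (WT) and DDAH1-transgenic mice (TG), which overexpress an enzyme that breaks down asymmetric dimethylarginine, an inhibitor of nitric oxide synthase. HDM-treated mice of both genotypes received 100 µg of house dust mite extract in 50 µl of PBS into the trachea, and PBS-treated mice received the same volume of PBS. The challenges were given 3 times a week over 3 weeks. Lungs were taken 24 h after the last challenge. Each of the 4 groups is a pool of equal amounts of RNA from 4 mice that was sequenced as 2 libraries, so that an SD here is the spread between 2 libraries of a single pool, and a p-value measures that spread only and not the spread between mice. The age of the mice and the promoter that drives the transgene are not given in the sources used here.

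A B cell reads antigen through a surface immunoglobulin that signals through CD79A and CD79B, and it carries CD20, the product of Ms4a1. When it becomes a plasma cell it loses CD20, enlarges its endoplasmic reticulum and secretes antibody with the help of Mzb1. J chain, the product of Jchain, joins the units of polymeric IgA and IgM, and the polymeric immunoglobulin receptor, made by epithelial cells from Pigr, binds these polymers and moves them into the airway lumen. In the lung, B cells collect in lymphoid aggregates around the bronchi after allergen exposure, and plasma cells lie beside the airway epithelium.

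Total counts lay between 5694928 and 11929374 per library, the lowest being replicate 1 of the HDM-treated TG mice. Within each group the counts of the 2 libraries varied beyond sampling noise (mean chi-square per gene 13.1 to 28.1), and the libraries were kept as separate replicates. After PBS, Xist, a transcript of the silenced X chromosome of females, lay at 11.3 to 20.8 CPM (counts scaled to the size of the library) and Ddx3y, a gene of the Y chromosome, at 58.7 to 69.0 CPM. After HDM, Xist lay at 2049 to 3042 CPM and Ddx3y had 2 or 3 counts in a library. The HDM and PBS groups therefore differed in these sex-linked transcripts in both genotypes, and in every comparison of HDM with PBS below the treatment and the sex of the mice cannot be told apart. The targeted gene, Ddah1, lay at 34.3 to 77.0 CPM after PBS and at 33.4 to 44.7 CPM after HDM, and its difference between genotypes did not pass the threshold (log2 fold change 0.66, adjusted p = 0.358 in PBS-treated mice and -0.32, adjusted p = 0.637 in HDM-treated mice, edgeR). A transgene whose reads do not align to the mouse gene would not be seen there, so this level does not check the labels.

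The B cell surface genes come first. Cd79a (Entrez 12518, chromosome 7 of GRCm38 from 24897497 to 24901858), a signalling chain of the B cell receptor, was at 33.1 and 54.1 CPM in the libraries of PBS-treated WT mice and at 22.6 and 13.4 CPM in those of PBS-treated TG mice. After HDM it was at 164 and 126 CPM in WT mice and at 79.4 and 114 CPM in TG mice. All 4 HDM-treated libraries thus lay above all 4 PBS-treated libraries, and within each treatment the WT libraries lay above the TG libraries without overlap. Such separation was common. Between genotypes, 20% of all genes tested lay wholly higher and 20.4% wholly lower in TG mice after PBS, and 23.2% and 25% after HDM. Between treatments, 25% lay wholly higher and 24.7% wholly lower after HDM in WT mice, and 28.8% and 28% in TG mice.

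The partner chain, Cd79b (Entrez 15985, chromosome 11 from 106311341 to 106314562), was at 23.8 and 26.1 CPM in PBS-treated WT mice and at 15.6 and 14.2 CPM in PBS-treated TG mice. After HDM its libraries were at 71.1 and 49.2 CPM in WT mice and at 57.8 and 122 CPM in TG mice, where the range of the second group held the upper WT library. Replicate 2 of the HDM-treated TG mice held the highest value of Cd79b, and the 2 libraries of that group were further apart for this gene than for any other of the B cell surface genes.

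Ms4a1 (Entrez 12482, chromosome 19 from 11249679 to 11266149), which encodes CD20, was at 27.1 and 35.6 CPM in PBS-treated WT mice, at 18.4 and 12.6 CPM in PBS-treated TG mice, at 105 and 104 CPM in HDM-treated WT mice and at 94.2 and 131 CPM in HDM-treated TG mice. The WT values after HDM fell inside the range of the TG values, and both groups were above every PBS-treated library. The annotated gene 4930526L06Rik, which overlaps Ms4a1, had at most 1 count in a library.

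Pou2af1 (Entrez 18985, chromosome 9 from 51213690 to 51240079) encodes a coactivator of octamer-binding transcription factors that B cells and plasma cells both use. It was at 17.6 and 18.3 CPM in PBS-treated WT mice, at 6.69 and 9.62 CPM in PBS-treated TG mice, at 70.5 and 74.5 CPM in HDM-treated WT mice and at 95.7 and 84.4 CPM in HDM-treated TG mice. The order of the genotypes was opposite under the 2 treatments, with the TG libraries the lowest of the 8 after PBS and the highest after HDM.

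The plasma cell genes come next. Mzb1 (Entrez 69816, chromosome 18 from 35647265 to 35650266) encodes a protein of the endoplasmic reticulum that helps assemble antibodies. It was at 5.53 and 5.47 CPM in PBS-treated WT mice, at 2.50 and 1.16 CPM in PBS-treated TG mice, at 17.8 and 18.1 CPM in HDM-treated WT mice and at 76.1 and 70.9 CPM in HDM-treated TG mice. These are counts of 55 and 67, of 25 and 11, of 199 and 180, and of 508 and 915. No groups overlapped, and the HDM-treated TG libraries stood far above the other 6. Of the stretches of 50 bases in the Mzb1 transcripts, 53.5% also occur in a GENCODE model named SPATA24 that runs through both Mzb1 and its neighbour, and the neighbour itself, Spata24, had between 0 and 48 counts per library.

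Jchain (Entrez 16069, chromosome 5 from 88519809 to 88527897), the most abundant of the 9 genes in every group, was at 126 and 122 CPM in PBS-treated WT mice and at 91.9 and 93.7 CPM in PBS-treated TG mice. After HDM it was at 752 and 729 CPM in WT mice and at 1774 and 1727 CPM in TG mice. The libraries of a group lay close together and no groups overlapped. As for Pou2af1 and Mzb1, the order from the lowest to the highest was PBS-treated TG, PBS-treated WT, HDM-treated WT and HDM-treated TG mice. The means of Cd79b and Ms4a1 had this order as well, with overlap between the HDM-treated genotypes.

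Tnfrsf17 (Entrez 21935, chromosome 16 from 11313232 to 11320074), the receptor of plasma cells for survival ligands of the TNF family, was close to the limit of detection. Its counts were 0 and 0 in PBS-treated WT mice, 10 and 0 in PBS-treated TG mice, 11 and 11 in HDM-treated WT mice and 4 and 19 in HDM-treated TG mice. A count of 0 allows up to 3 counts, which is between 0.232 and 0.450 CPM depending on the library. This covers counting error only, and whether PCR copies of a molecule were counted as separate reads is not stated. The values of the HDM-treated groups overlapped with each other and with the 10 counts of a single PBS-treated TG library.

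Sdc1 (Entrez 20969, chromosome 12 from 8771396 to 8793716) encodes syndecan-1, which marks the plasma cell surface and is also made by epithelial cells. It was at 36.1 and 51.4 CPM in PBS-treated WT mice, at 69.6 and 41.1 CPM in PBS-treated TG mice, at 38.9 and 62.1 CPM in HDM-treated WT mice and at 49.3 and 73.5 CPM in HDM-treated TG mice. Every pair of groups overlapped.

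Pigr (Entrez 18703, chromosome 1 from 130826684 to 130852249) was at 46.0 and 48.9 CPM in PBS-treated WT mice, at 35.4 and 57.0 CPM in PBS-treated TG mice, at 242 and 245 CPM in HDM-treated WT mice and at 117 and 122 CPM in HDM-treated TG mice. The PBS-treated groups overlapped, and after HDM both groups were above them with the WT libraries the higher. Pigr is a product of the epithelium. Of the genes with non-overlapping groups after HDM only Pigr and Cd79a had the higher values in WT mice. Over all genes tested between these groups, 23.2% lay wholly higher and 25% wholly lower in TG mice.

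**Figure D1:**
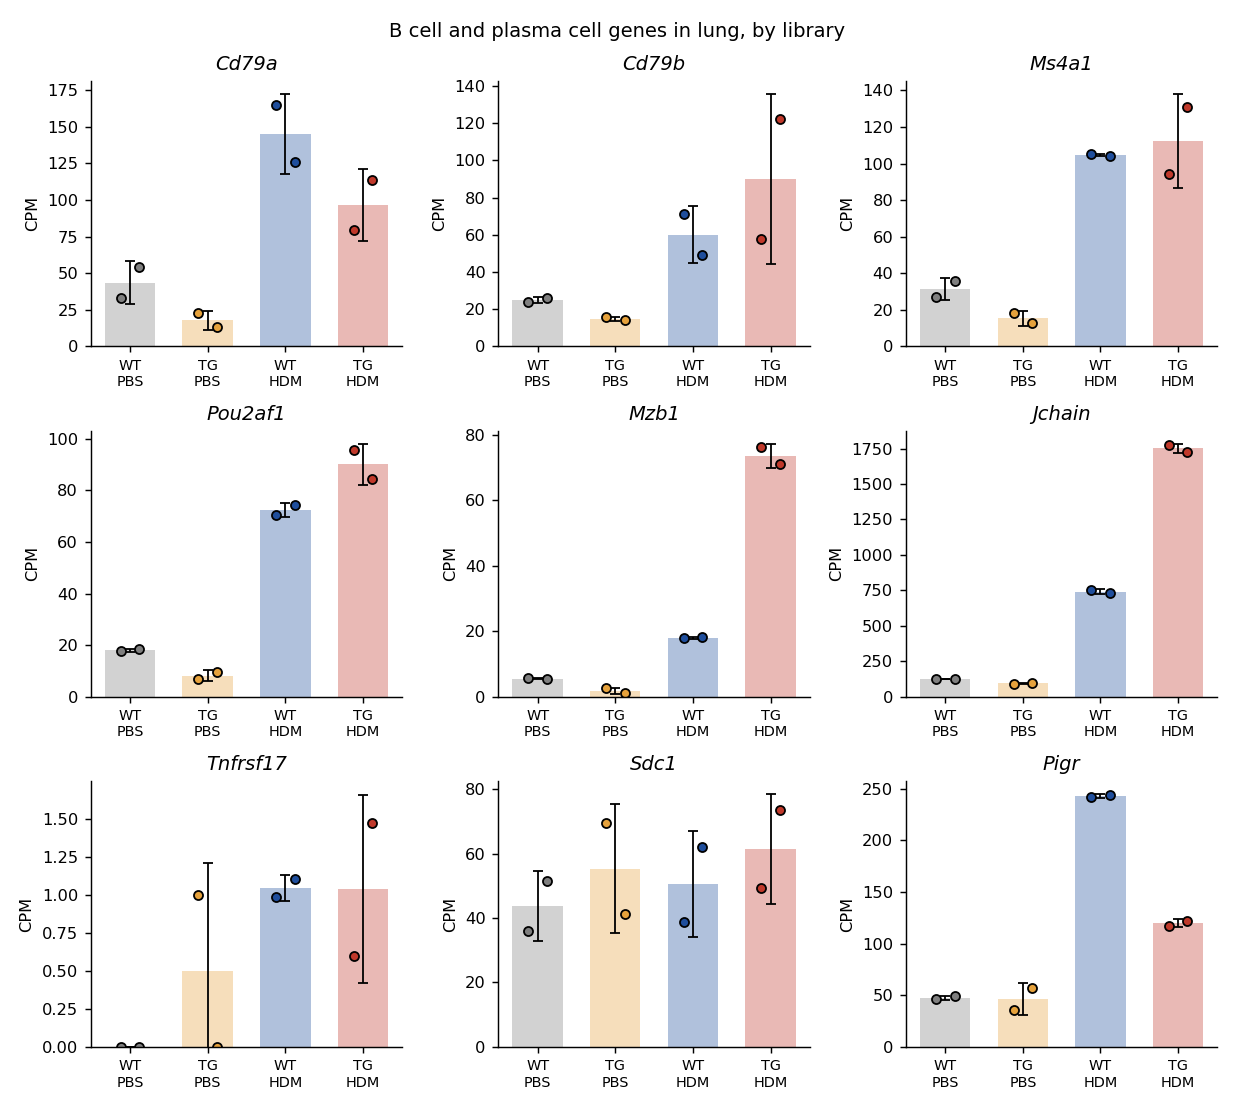
CPM (counts scaled to library size by TMM over all 8 libraries, linear axes from 0) of the 9 genes in the 4 groups. Points are the 2 libraries of a group, bars their mean and error bars the SD. Mzb1 and Jchain stand highest in the HDM-treated TG libraries, at 70.9 to 76.1 and 1727 to 1774 CPM, and Pigr stands highest in the HDM-treated WT libraries, at 242 to 245 CPM, while the groups overlap for Sdc1.

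Levels of different genes were compared per kilobase of coding sequence, since the reads had been counted in coding regions. In HDM-treated WT mice Jchain was at 1553 ± 33.6 CPM per kilobase (SD, n = 2 libraries) and Cd79a followed at 220 ± 41.6. Ms4a1 (120 ± 0.744), Pigr (105 ± 0.843), Pou2af1 (94.4 ± 3.61), Cd79b (87.9 ± 22.6) and Sdc1 (54.1 ± 17.6) stood between these and Mzb1 (31.8 ± 0.372), and among them Cd79b was within the spread of Pigr, Pou2af1 and Sdc1. In HDM-treated TG mice Jchain was at 3669 ± 69.0 CPM per kilobase, and Cd79a (146 ± 36.8), Cd79b (132 ± 66.8), Mzb1 (130 ± 6.56), Ms4a1 (129 ± 29.5) and Pou2af1 (117 ± 10.4) were within each other's spread. On this scale Mzb1 stood among the B cell surface genes in HDM-treated TG mice and below them in HDM-treated WT mice. Per kilobase of transcript it was at 81.3 ± 4.09 CPM in HDM-treated TG mice, above Ms4a1 (36.6 ± 8.38) and Pou2af1 (35.4 ± 3.14) and within the spread of Cd79b (75.4 ± 38.2) and Cd79a (66.3 ± 16.7). Per kilobase of transcript, the order below Cd79a in HDM-treated WT mice was another, with Pigr (63.2) above Cd79b (50.3) and Ms4a1 (34.1).

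The sequences before the start sites are shown for the genes among the 9 that differed between groups and have an entry in the RefSeq promoter table used (GRCm38.p6). Each line gives the 250 bases upstream of the gene's start, 5′ to 3′ on the strand of the gene, for Cd79a (chr7:24897247-24897496, plus strand), Pou2af1 (chr9:51213440-51213689, plus strand), Jchain (chr5:88527898-88528147, minus strand) and Pigr (chr1:130826434-130826683, plus strand). Capitals mark the matches to the motifs searched on both strands: the octamer ATGCAAAT, the unfolded protein response element core TGACGTGG, the E-box CAGGTG, the interferon response element (GAAA, any 2 bases, GAAA) and the Ets-IRF composite element (GGAA, any 2 bases, GAAA).
Cd79a: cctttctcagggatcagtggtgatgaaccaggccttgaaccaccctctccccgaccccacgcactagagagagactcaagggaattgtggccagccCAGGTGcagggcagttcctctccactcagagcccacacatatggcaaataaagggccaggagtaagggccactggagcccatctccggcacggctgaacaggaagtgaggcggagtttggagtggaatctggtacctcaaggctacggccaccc
Pou2af1: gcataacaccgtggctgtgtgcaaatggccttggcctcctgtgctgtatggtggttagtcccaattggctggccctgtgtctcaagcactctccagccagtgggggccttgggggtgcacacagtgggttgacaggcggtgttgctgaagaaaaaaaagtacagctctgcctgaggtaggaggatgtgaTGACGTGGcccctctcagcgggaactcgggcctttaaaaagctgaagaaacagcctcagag
Jchain: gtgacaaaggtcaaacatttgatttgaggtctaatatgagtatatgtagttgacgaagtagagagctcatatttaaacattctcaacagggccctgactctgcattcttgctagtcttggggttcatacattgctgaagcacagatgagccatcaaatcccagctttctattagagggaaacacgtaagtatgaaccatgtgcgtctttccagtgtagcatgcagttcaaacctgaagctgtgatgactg
Pigr: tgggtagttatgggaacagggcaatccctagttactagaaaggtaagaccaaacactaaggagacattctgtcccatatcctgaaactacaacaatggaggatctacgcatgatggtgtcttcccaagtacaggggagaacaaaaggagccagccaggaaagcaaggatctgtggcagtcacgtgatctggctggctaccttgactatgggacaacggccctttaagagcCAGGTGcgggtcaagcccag
TGACGTGG, a motif bound by factors of the unfolded protein response such as XBP1, lay 61 to 54 bases upstream of Pou2af1 and occurs in 0.563% of the 32851 upstream windows of the same length. CAGGTG lay 154 to 149 bases upstream of Cd79a and 20 to 15 bases upstream of Pigr, and occurs in 17.2% of the windows. Among the other windows, that of Sdc1 held none of the 5 motifs. The window of Tnfrsf17 held the interferon response element (2.98% of windows) as its reverse complement 101 to 92 bases before the start the table gives, but that window (chr16:11313559-11313808) lies inside the span of the gene given above, whose annotation uses an earlier start. The octamer (1.6% of windows) and the Ets-IRF element (2.3%) were in none of the 6 windows, and the window of Jchain held no match. Cd79b and Ms4a1 had no entry, and the window of Mzb1 is not shown here. A match of letters is a description and not a binding site.

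HDM-treated WT mice were compared with PBS-treated WT mice to ask which genes follow the allergen in normal lungs. Jchain, Pigr and Pou2af1 were 5.97-fold, 5.12-fold and 4.03-fold higher after HDM, and 7 of the 9 genes tested rose in all, beside 4.44% called higher and 2.3% called lower of the 15123 genes tested. Genes were called at an adjusted p under 0.05 in the quasi-likelihood test of edgeR, with the adjustment of Benjamini and Hochberg over all genes tested. The log2 fold changes were 2.58 for Jchain (standard error 0.13, adjusted p = 1.50e-08, edgeR), 2.36 for Pigr (standard error 0.16, adjusted p = 4.60e-07, edgeR) and 2.01 for Pou2af1 (standard error 0.25, adjusted p = 0.000131, edgeR). The B cell surface genes rose by similar amounts, with log2 fold changes of 1.74 for Ms4a1 (standard error 0.22), 1.73 for Cd79a (0.24) and 1.27 for Cd79b (0.27), and adjusted p-values of 0.000155, 0.000380 and 0.0104 (edgeR). Mzb1 rose by 1.70 (standard error 0.44, adjusted p = 0.0330, edgeR). That call was lost with an offset for gene length (1.49, adjusted p = 0.0588), without PBS-treated WT replicate 1 (1.71, adjusted p = 0.108) and without replicate 2 (1.68, adjusted p = 0.139). The value of Sdc1 was 0.20 (adjusted p = 0.762, edgeR). Tnfrsf17, with no count in either PBS-treated WT library, was at least 3.82-fold higher against a floor of 3 counts per library and did not pass the threshold (adjusted p = 0.0826, edgeR). In bulk RNA, more cells of a type and more RNA per cell cannot be told apart.

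The same comparison was made in TG mice. There 7 of the 8 genes tested rose, beside 8.43% called higher and 5.35% called lower of the 15086 genes tested. Mzb1 was 40.4-fold higher after HDM (log2 fold change 5.34, standard error 0.43, adjusted p = 1.59e-05, edgeR) and Jchain 19.2-fold higher (4.26, standard error 0.18, adjusted p = 1.03e-07, edgeR). Under the alternative settings listed below that kept every library, these log2 fold changes ran from 4.54 to 5.39 for Mzb1 and from 3.76 to 4.26 for Jchain. Pou2af1 followed at 11.2-fold (3.49, standard error 0.33, adjusted p = 4.86e-05, edgeR), and then Ms4a1 at 7.36-fold (2.88), Cd79b at 6.13-fold (2.62) and Cd79a at 5.44-fold (2.44), with adjusted p-values between 0.000114 and 0.000751. Pigr rose less, by 2.63-fold (1.40, standard error 0.27, adjusted p = 0.00605, edgeR). Its call was lost without PBS-treated TG replicate 1 (1.08, adjusted p = 0.130) and without replicate 2 (1.77, adjusted p = 0.0514), and that of Cd79b without replicate 2 (2.55, adjusted p = 0.0559). Sdc1 again had a small log2 fold change (0.17, adjusted p = 0.785, edgeR), and Tnfrsf17 did not pass the low-count filter. The 2 comparisons of HDM with PBS share no library with each other, but their libraries are used again in the comparisons of genotypes, so that the values of those are not independent of these.

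PBS-treated TG mice were compared with PBS-treated WT mice to ask what the transgene changed without allergen. None of the 8 genes tested passed the threshold, where 0.375% of the 14926 genes tested were called lower and 0.281% higher. At an unadjusted p under 0.05, 1489 genes stood apart in this comparison, and among the 9 these were Cd79a, Cd79b, Ms4a1, Pou2af1 and Jchain. The 6 B cell and plasma cell genes other than Sdc1 and Tnfrsf17 all had negative values, from -1.59 for Mzb1 (standard error 0.77, adjusted p = 0.516, edgeR), -1.28 for Cd79a (0.34, 0.110), -1.15 for Pou2af1 (0.43, 0.330) and -1.03 for Ms4a1 (0.34, 0.240) to -0.76 for Cd79b (0.34, 0.470) and -0.43 for Jchain (0.17, 0.366). Those of Sdc1 and Pigr were 0.33 and -0.05 (adjusted p = 0.752 and 0.972, edgeR). Cd79a was called lower by DESeq2 (-1.27, adjusted p = 0.0370), without the low-count filter (-1.28, adjusted p = 0.00599) and without PBS-treated TG replicate 1 (-1.70, adjusted p = 0.00113).

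Markers of other cells moved with this comparison. The summed level of 5 genes of all leukocytes (Ptprc, Cd52, Coro1a, Laptm5 and Cd53) was 571 to 583 CPM in PBS-treated WT mice and 367 to 389 CPM in PBS-treated TG mice, and 1 of them, Ptprc, fell by 0.74 on the log2 scale (adjusted p = 0.0259, edgeR). The summed level of 7 thymocyte genes was 77.7 to 80.2 CPM in PBS-treated WT mice and 17.6 to 28.1 CPM in the 6 other libraries. Of these 7 genes 2 were called lower in PBS-treated TG mice, beside 0.375% of all genes. These were Rag1, a recombinase of developing lymphocytes, with 189 and 371 counts against 1 and 0, and Arpp21, with 193 and 105 counts against 1 and 0. The part of these cells in the lower B cell values was not tested.

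HDM-treated TG mice were compared with HDM-treated WT mice to ask what the transgene changed under allergen. Mzb1 and Jchain rose and Pigr fell, so that 2 of the 9 genes tested were called higher and 1 lower, beside 1.84% called higher and 0.599% called lower of 15191 genes tested. Mzb1 was 4.21-fold higher in TG mice, at 73.5 ± 3.70 against 17.9 ± 0.210 CPM (SD, n = 2 libraries, log2 fold change 2.07, standard error 0.29, adjusted p = 0.00296, edgeR). Jchain was 2.43-fold higher (1.28, standard error 0.15, adjusted p = 0.00151, edgeR). Pigr was 1.98-fold lower, at 120 ± 3.80 against 243 ± 1.95 CPM (-0.98, standard error 0.19, adjusted p = 0.0208, edgeR). The genes of the B cell surface did not pass the threshold and had values of both signs, with -0.55 for Cd79a (standard error 0.24, adjusted p = 0.287), 0.14 for Ms4a1 (0.23, 0.822) and 0.62 for Cd79b (0.34, 0.393). Those of Pou2af1, Sdc1 and Tnfrsf17 were 0.35 (adjusted p = 0.494), 0.32 (0.667) and 0.05 (0.992, edgeR).

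The 3 calls in HDM-treated mice kept their size with a WT library left out, but not their adjusted p. Without HDM-treated WT replicate 1 the values were 2.04 for Mzb1, 1.28 for Jchain and -1.01 for Pigr (adjusted p = 0.186, 0.186 and 0.337), and without replicate 2 they were 2.09, 1.26 and -0.97 (adjusted p = 0.119, 0.1005 and 0.299). In these fits, with a lone WT library that is assumed to vary like the TG libraries, only 6 and 20 genes were called in all. Replicate 2 of the HDM-treated TG mice moved the calls of Cd79a and Cd79b. Without it Cd79a was called lower (-0.82, adjusted p = 0.0190) and the value of Cd79b was -0.01, and without replicate 1 Cd79b was called higher (1.05, adjusted p = 0.00947).

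An offset for transcript length changed the balance of calls over all genes, which went from 279 higher and 91 lower to 96 higher and 81 lower. The 3 genes were still called, with log2 fold changes of 1.48 for Mzb1, 0.93 for Jchain and -0.93 for Pigr (adjusted p = 0.0377, 0.0103 and 0.0405, edgeR). The 5 genes of all leukocytes summed to 1009 to 1067 CPM in HDM-treated WT mice and 1220 to 1344 CPM in HDM-treated TG mice, with Cd52 called higher (log2 fold change 1.75, adjusted p = 0.00382, edgeR). The others were not called, at 0.48 for Ptprc, 0.41 for Coro1a, 0.11 for Cd53 and -0.09 for Laptm5. Epcam, an epithelial marker, was at 32.3 ± 0.857 CPM in HDM-treated WT mice and 29.0 ± 0.283 CPM in HDM-treated TG mice, and none of the 8 airway epithelial genes was called between these groups. The part of leukocyte number or RNA length in the values of Mzb1 and Jchain was not tested.

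**Figure D2:**
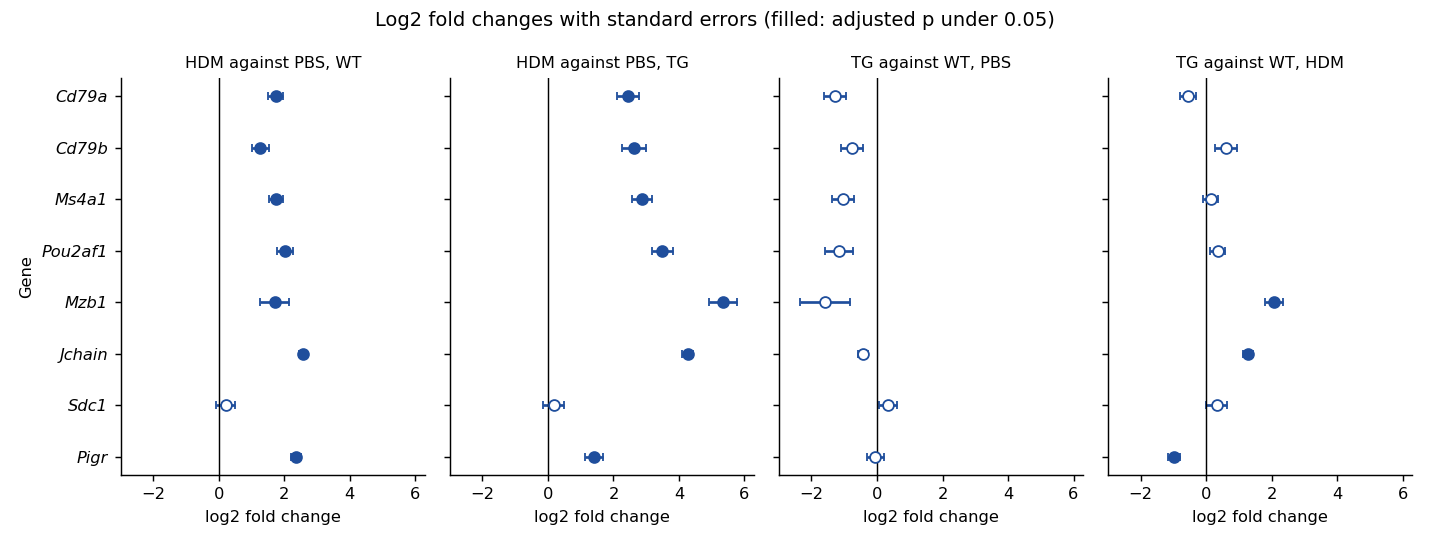
Log2 fold changes (x axis) of 8 genes (y axis) in the 4 comparisons, with bars of 1 standard error. Filled points have an adjusted p under 0.05 by edgeR's quasi-likelihood test. Tnfrsf17 is left out because both libraries of PBS-treated WT mice had 0 counts. Of the points for TG against WT mice, only Mzb1 (2.07), Jchain (1.28) and Pigr (-0.98) after HDM are filled.

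Whether the effect of the genotype depended on the treatment was tested as an interaction over all 8 libraries. The HDM and PBS groups also differed in Xist and Ddx3y, so treatment and sex cannot be told apart in this test either. Mzb1 (log2 difference 3.61, standard error 0.54, adjusted p = 0.00116, edgeR) and Jchain (1.66, standard error 0.18, adjusted p = 3.32e-05, edgeR) passed the threshold, so that 2 of 9 genes were called higher beside 1.05% called higher and 0.706% called lower of 15868 genes tested. With the offset for length the calls over all genes went from 167 higher and 112 lower to 93 higher and 115 lower. The other values were 1.45 for Pou2af1 (standard error 0.38, adjusted p = 0.0641), 1.34 for Cd79b (0.46, 0.167), 1.12 for Ms4a1 (0.37, 0.143), 0.69 for Cd79a (0.41, 0.466), -0.05 for Sdc1 (0.45, 0.975) and -0.98 for Pigr (0.30, 0.118). Tnfrsf17, which had no count in PBS-treated WT mice, had an adjusted p of 0.448 (edgeR) and is given no size. Cd79b was called without the low-count filter (1.33, adjusted p = 0.0412) and without HDM-treated TG replicate 1 (1.77, adjusted p = 0.0242). Pou2af1 was called by DESeq2 (1.45, adjusted p = 0.00834), without the low-count filter (1.44, adjusted p = 0.0249) and without HDM-treated TG replicate 2 (1.53, adjusted p = 0.0422). Pigr was called by DESeq2 (-0.98, adjusted p = 0.0465), without the low-count filter (-0.99, adjusted p = 0.0403) and without PBS-treated TG replicate 1 (-1.28, adjusted p = 0.0378).

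Ratios of counts within a library need no scaling between libraries and set the plasma cell genes against CD20. They are not corrected for transcript length. Between HDM-treated genotypes the offset for length lowered the log2 fold changes of Mzb1 from 2.07 to 1.48 and of Jchain from 1.28 to 0.93. That of Ms4a1 was 0.14, and 0.10 to 0.14 under the alternative settings that kept every library. The ratio of Jchain to Ms4a1 was 4.64 and 3.43 in PBS-treated WT mice, 5 and 7.45 in PBS-treated TG mice, 7.15 and 6.99 in HDM-treated WT mice and 18.8 and 13.2 in HDM-treated TG mice. Mzb1 to Ms4a1 was 0.204 and 0.154, 0.136 and 0.0924, 0.169 and 0.173, and 0.808 and 0.542 in the same order of groups. The HDM-treated TG libraries were thus the highest in both ratios, and for Mzb1 the HDM-treated WT libraries lay within the range of the PBS-treated WT libraries. The ratio of Cd79a to Ms4a1 was between 0.843 and 0.870 in HDM-treated TG mice and between 1.07 and 1.56 in the 6 other libraries.

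Pigr and Jchain, which encode the receptor and the part of the antibody polymer that it binds, moved apart in the HDM-treated TG mice. The ratio of Pigr to Jchain was 0.366 and 0.401 in PBS-treated WT mice, 0.386 and 0.608 in PBS-treated TG mice, 0.322 and 0.335 in HDM-treated WT mice and 0.0660 and 0.0709 in HDM-treated TG mice. Set against Epcam, Pigr was at 2.28 and 1.72 in PBS-treated WT mice, 1.20 and 3.64 in PBS-treated TG mice, 7.64 and 7.44 in HDM-treated WT mice and 4.01 and 4.25 in HDM-treated TG mice. Against Epcam, which was chosen after its values were seen, Pigr was higher after HDM in both genotypes and lower in TG than in WT mice after HDM, with no overlap between those groups. Against each of the 8 airway epithelial genes listed, Pigr was higher in the HDM-treated than in the PBS-treated libraries of the same genotype. It was lower in HDM-treated TG than in HDM-treated WT libraries against 6 of the 8, and the libraries overlapped against Krt19 (3.00 and 5.14 in TG, 3.97 and 7.88 in WT mice) and Foxj1 (4.80 and 5.46 in TG, 4.50 and 6.69 in WT mice). These ratios are descriptions over 2 libraries a group, are not corrected for transcript length and were not tested.

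**Figure D3:**
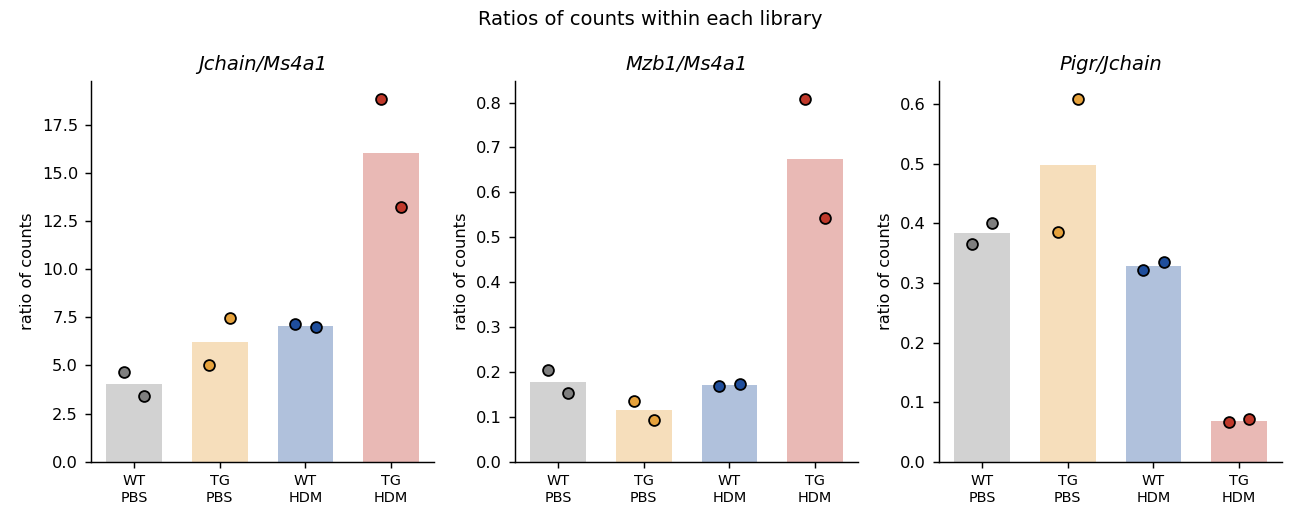
Ratios of counts within each library (y axes, linear from 0) of Jchain to Ms4a1, Mzb1 to Ms4a1 and Pigr to Jchain. Points are the 2 libraries of a group and bars their mean. The ratios are not corrected for transcript length. The HDM-treated TG libraries are the highest for Jchain to Ms4a1 (18.8 and 13.2) and Mzb1 to Ms4a1 (0.808 and 0.542), and the lowest for Pigr to Jchain (0.0660 and 0.0709).

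Other genes of the lineage were taken from lists of markers. Of 17 further genes of the B cell surface and its signalling, all had positive log2 fold changes with HDM in both genotypes. In WT mice 8 of them rose, beside 4.44% of all genes called higher (median of the list 1.52, beside a median of 0.02 over all genes tested), with Tnfrsf13c, the receptor for the survival factor BAFF, at 2.49, Cd72, a coreceptor, at 2.39 and Bank1, a signalling scaffold, at 1.73. In TG mice 12 rose beside 8.43% of all genes (median 2.52, over all genes 0.03), led by Fcrla at 3.67 and Cd72 at 3.43. In WT mice 13 rose without the low-count filter and 5 without PBS-treated WT replicate 2, and in TG mice 9 rose with the offset for length and 6 without either PBS-treated TG library. Between genotypes none of the 17 was called. By DESeq2 and without the filter 1 was higher in HDM-treated TG mice, without HDM-treated TG replicate 2 there were 2 lower, and in PBS-treated mice 1 was lower without TG replicate 1 or 2 or without WT replicate 2. In PBS-treated mice 15 of 17 had negative values (median -0.91), and in HDM-treated mice 9 of 17 (median -0.09).

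Of 6 transcription factors of the B cell, 4 rose with HDM in WT mice, beside 4.44% of all genes called higher. These were Pax5, which holds the B cell identity, at 4.08, Pou2f2, an octamer-binding factor, at 1.90, Ikzf3 at 1.51 and Spib at 1.44. Pax5 had 13 and 5 counts in PBS-treated WT mice and 96 and 201 counts in HDM-treated WT mice. Ebf1 and Bach2 were called in neither genotype, at 0.35 and -0.02 in WT and -0.48 and -0.43 in TG mice. Pax5 and Spib were not called in TG mice (1.97 and 1.14). There 2 rose beside 8.43% of all genes, Ikzf3 at 2.22 and Pou2f2 at 1.83. None was called in TG mice without PBS-treated replicate 2, and 1 was called without PBS-treated replicate 1 or HDM-treated replicate 2. Between genotypes none was called, with medians of -0.28 in PBS-treated and -0.58 in HDM-treated mice.

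Of 9 regulators and surface genes of plasma cells, 7 passed the low-count filter and 4 rose with HDM in WT mice, beside 4.44% of all genes called higher, led by Irf4, which drives plasma cell formation, at 2.28, Slamf7, a plasma cell surface receptor, at 1.99 and Ell2, an elongation factor used in the switch to secreted antibody, at 1.20. In TG mice 4 rose beside 8.43% of all genes, led by Irf4 at 3.63, Slamf7 at 2.14 and Eaf2, a partner of Ell2, at 1.56. Not called in WT mice were Eaf2 (0.73), Prdm1 (0.17) and Tent5c (0.07). Not called in TG mice were Prdm1 (0.78), Ell2 (0.56) and Tent5c (-8.4e-05). Tnfrsf13b and Ccr10 did not pass the filter in these comparisons. Irf4 was at 15.8 and 19.9 CPM in PBS-treated WT mice, at 5.79 and 9.62 CPM in PBS-treated TG mice, at 93.3 and 80.3 CPM in HDM-treated WT mice and at 98.7 and 89.0 CPM in HDM-treated TG mice. Its HDM-treated groups overlapped, and none of these genes was called between genotypes. With the offset for length 3 were called in WT and 2 in TG mice. In TG mice 1 was called without PBS-treated replicate 2, and 2 were called without PBS-treated replicate 1 or HDM-treated replicate 2.

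The machinery of antibody secretion, 14 genes of the endoplasmic reticulum, rose in part. In WT mice 6 genes rose with HDM, or 2 without PBS-treated WT replicate 2, beside 4.44% of all genes called higher, led by Pdia4, a disulfide isomerase, at 1.24, Sdf2l1 at 1.22 and Edem1, which works in the disposal of misfolded proteins, at 1.00. In TG mice 11 rose beside 8.43% of all genes, or 8 with the offset for length, 2 without PBS-treated TG replicate 1 and 3 without replicate 2, led by Derl3, which takes part in that disposal, at 5.75, Sec11c, a subunit of the signal peptidase, at 2.61 and Ssr4, a subunit of the translocon-associated complex, at 2.28. Derl3 had 0 and 4 counts in PBS-treated TG mice, 71 and 163 in HDM-treated TG mice, 13 and 31 in PBS-treated WT mice and 78 and 104 in HDM-treated WT mice. Between HDM-treated TG and WT mice none of the 14 was called (median 0.41, over all genes 0.01). By DESeq2, without the low-count filter, with the replicate block and without HDM-treated TG replicate 1, however, 2 were called higher and 1 lower, without HDM-treated TG replicate 2 it was 3 and 1, and with all 8 libraries in the fit 1 and 1. All 14 genes are also used by other secretory cells.

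**Figure D4:**
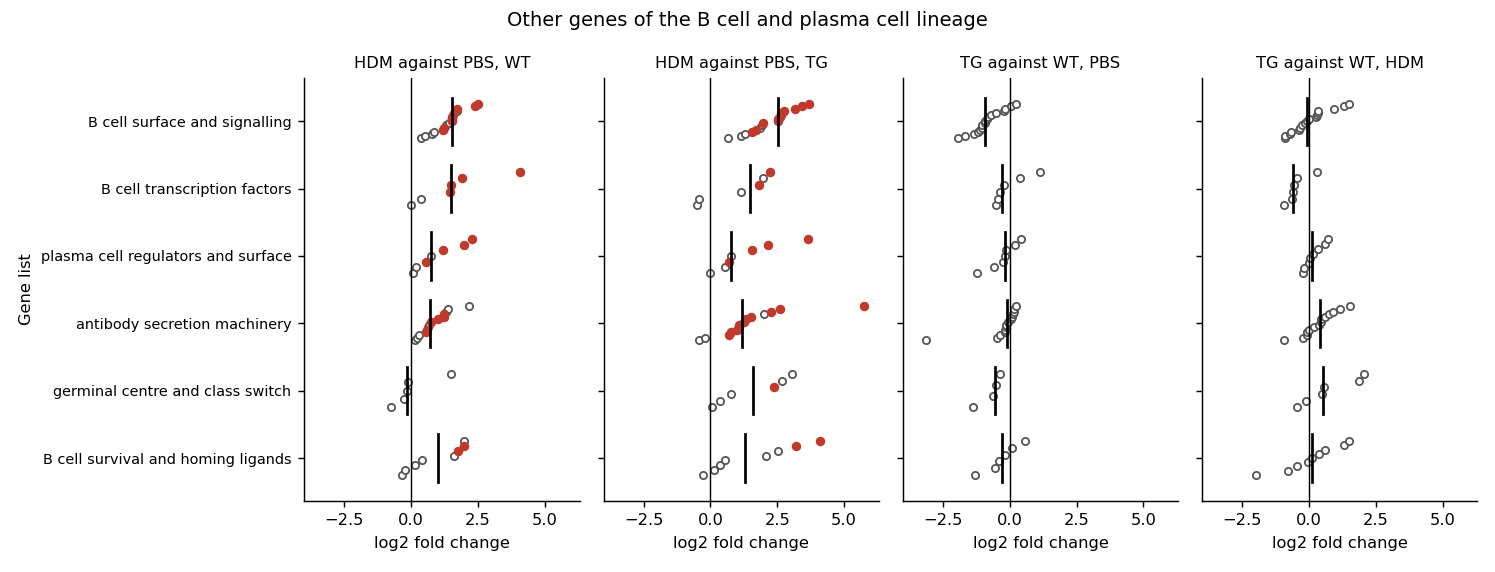
Log2 fold changes (x axis) of the tested genes in 6 lists of B cell and plasma cell genes (y axis), in the 4 comparisons. Each point is a gene, filled in red where its adjusted p was under 0.05 by edgeR, and the vertical bar is the median of the list. Filled points lie in the comparisons of HDM with PBS, such as 8 in WT and 12 in TG mice for the B cell surface, and there are none between genotypes.

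Genes of the germinal centre, where B cells mature, and ligands that keep or attract B cells were taken next. Of 7 germinal centre genes, 1 was called, Mybl1, which rose with HDM in TG mice (2.39). There 6 of the list were tested, beside 8.43% of all genes called higher. Mybl1 was not called without either PBS-treated TG library or without HDM-treated TG replicate 1. Of 11 ligands, 2 rose with HDM in WT mice, beside 4.44% of all genes called higher. These were Cxcl13, which draws B cells to lymphoid aggregates, at 1.97 and Tnfsf13b, which encodes BAFF, at 1.76. In TG mice Cxcl13 rose by 3.18 and Il21, a T cell factor for plasma cells, by 4.08, beside 8.43% of all genes called higher. The value of Il21 rests on 5 and 3 counts after PBS and 83 and 20 after HDM. With the offset for length 1 of the 11 was called in TG mice. Without either PBS-treated library of the genotype, 1 of the 11 was called in WT and 1 in TG mice. The 13 genes of the antibody constant regions and surrogate light chains could be followed for Igll1 and Vpreb1 alone, with at most 1.797 CPM together in a library. No row of the count table was matched to the symbols of the other 11, which were not analysed.

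Leukocyte genes in general rose with HDM beside the B cell genes. Of the 5 genes of all leukocytes 4 rose in WT mice, beside 4.44% of all genes called higher, and 5 in TG mice, beside 8.43%, or 3 without PBS-treated TG replicate 1, led by Cd52 (1.92 and 4.43). Of 6 T cell genes none was called in WT mice and 3 rose in TG mice, Lck (3.20), Cd3g (2.66) and Cd5 (2.49), with a summed level of 39.2 to 51.0 CPM in PBS-treated WT, 36.0 to 36.1 in PBS-treated TG, 66.0 to 94.8 in HDM-treated WT and 78.2 to 123 CPM in HDM-treated TG mice. In TG mice none of the 6 was called without PBS-treated replicate 2, 1 was called without PBS-treated replicate 1 or HDM-treated replicate 1, and 5 were called without HDM-treated replicate 2. None of the 5 genes of plasmacytoid dendritic cells, which also use some genes of plasma cells, was called in any comparison. Their sum was 12.9 and 20.7 CPM in PBS-treated WT mice and 22.2 and 15.1 CPM in HDM-treated WT mice. In TG mice it was 15.3 and 11.2 CPM after PBS and 24.1 and 18.3 CPM after HDM. The median log2 fold change of the list with HDM was 0.92 in WT and 1.18 in TG mice. Of the 7 thymocyte genes 4 fell with HDM in WT mice, beside 2.3% of all genes called lower. The interaction was called for Cd52 (2.49) and Ptprc (1.16) and, among the thymocyte genes, for Rag1 (adjusted p = 0.00344, edgeR), which is given no size because its counts were between 0 and 7 outside PBS-treated WT mice. None of the thymocyte genes was called in the interaction without HDM-treated TG replicate 1. The airway epithelial genes were led by Scgb1a1, the club cell secretory protein, which fell with HDM by 1.46 in WT and by 1.95 in TG mice on the log2 scale. These were the only epithelial calls in the 4 comparisons, while Pigr rose in both genotypes.

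Genes whose log2 CPM followed that of Jchain most closely over the 8 libraries were Ctss, a protease of antigen-presenting cells (Pearson r = 0.996), and the MHC class I genes H2-D1 (0.994) and H2-Q9 (0.992), of 15868 genes. For Ms4a1 they were Gm8979 and Clec4a2 (0.994 each) and Dock2 (0.992), and for Pigr they were Snx5 (0.994), Tlr8 (0.988) and Serpina3n (0.988). Among the 9 genes, Jchain had values of 0.962 with Mzb1, 0.961 with Pou2af1, 0.937 with Ms4a1, 0.936 with Cd79b and 0.830 with Cd79a, and Ms4a1 followed Cd79a (0.968) and Pou2af1 (0.968). Sdc1 followed neither Ms4a1 (0.272) nor Pigr (0.0479). The points are 4 pools with 2 libraries each and share the difference between HDM and PBS, so these values describe a likeness of pattern and no more.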

How the data were processed

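Each of the 4 groups (WT or TG, PBS or HDM) is a pool of lung RNA from 4 mice, sequenced as 2 libraries that were assigned to groups by their labels. The authors aligned single reads to mm10 with TopHat and deposited raw read counts in the coding region of 23469 genes. Use of strand is not stated. The 9 genes and all lists were chosen with earlier results of these data known.

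Symbols came from RefSeq (23372 identifiers) and lengths from GENCODE M21 (21145 genes). Each comparison was fitted to the counts of its own 4 libraries, and the interaction to all 8, with the quasi-likelihood test of edgeR 4.0.16 (R 4.3.3), TMM scaling and filterByExpr at a count minimum of 10. Adjusted p-values are those of Benjamini and Hochberg over the genes tested, with a threshold of 0.05. CPM were TMM-scaled over 8 libraries, and a prior count of 2 was used for log2 CPM. With 2 libraries against 2, an exact permutation test cannot go below p = 0.333 and was not used. All 9 genes were named, and from each list the called genes by number and the 3 with the largest change per direction. Spib was named as the remaining called factor of its list, and Irf4, Epcam and Ptprc were given per group after their values were seen. Uncalled genes of the B cell factor, plasma cell regulator and leukocyte lists were also named after their values were seen. For Jchain, Ms4a1 and Pigr the 3 most correlated genes were named. A result that this rule would name is not reported here.

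Alternatives were RLE size factors, the tool DESeq2 1.42.0, all genes without the low-count filter, a block for the replicate number, library sizes that leave out haemoglobin genes and Rn45S (8.58% to 21.8% of a library), a length offset by loess (span 0.5), a joint fit of the 8 libraries, and each library left out. The scripts were tested on simulated data.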

Additional observations from a re-analysis of the deposited data

Results flagged for a closer look

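For 2 of the 9 genes the effect of the genotype differed between HDM-treated and PBS-treated mice by the interaction test. These mice also differed in the sex-linked transcripts Xist and Ddx3y, so treatment and sex cannot be told apart here. For Mzb1 this difference was 3.61 on the log2 scale (standard error 0.54, adjusted p = 0.00116, edgeR), from a value of -1.59 in PBS-treated and 2.07 in HDM-treated mice. For Jchain it was 1.66 (standard error 0.18, adjusted p = 3.32e-05, edgeR), from -0.43 in PBS-treated and 1.28 in HDM-treated mice. In both the HDM-treated TG libraries were the highest of the 8 and the PBS-treated TG libraries the lowest. Neither value in PBS-treated mice passed the threshold (adjusted p = 0.516 for Mzb1 and 0.366 for Jchain, edgeR). Under the alternatives that kept every library, the interaction was as low as 3.04 for Mzb1 and 1.31 for Jchain. It was also called for the leukocyte genes Cd52 (2.49) and Ptprc (1.16).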

How the results depend on the processing

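Of the log2 fold changes of the 9 genes under these alternatives, 454 kept their direction and their side of the threshold, 12 lost and 13 gained a call without turning, and 17 changed sign, all of them values that had not been called. The counts of genes past the threshold moved more. Between PBS-treated genotypes 98 genes were called, and 223 by DESeq2, 306 without the low-count filter and 46 with the replicate number as a block. Between HDM-treated genotypes 370 were called, and 890 by DESeq2, 1055 without the filter, 625 with the replicate block, 177 with the offset for gene length and 771 with all 8 libraries in the fit. For HDM in WT mice 1020 became 1588 without the filter, and for the interaction 279 became 680 by DESeq2 and 675 without the filter. The offset for length moved the share of calls that were higher from 75.4% to 54.2% between HDM-treated genotypes and from 59.9% to 44.7% in the interaction.

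With each library left out in turn, between 75 and 432 genes were called between PBS-treated genotypes, 6 to 1595 between HDM-treated genotypes, 652 to 1661 for HDM in WT mice, 277 to 2676 for HDM in TG mice and 138 to 723 for the interaction. Of the 9 genes, 0 to 1 were then called lower in PBS-treated TG mice, 0 to 3 higher and 0 to 2 lower in HDM-treated TG mice, and 0 to 1 lower in the interaction. By DESeq2 and without the filter, 1 of the 9 was called lower in PBS-treated TG mice and 1 lower in the interaction, and without the filter 4 were called higher in the interaction. The cause of these moves was not tested.

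Signs changed in values that had not been called. Between HDM-treated genotypes the log2 fold change of Tnfrsf17 was -0.0768 with the block, -0.6045 with the offset for length and -0.738 to 0.5111 with a library left out. With a library left out, those of Cd79b and Ms4a1 ran from -0.0068 to 1.0454 and from -0.1025 to 0.3391 between HDM-treated genotypes, and those of Sdc1 and Pigr from -0.0909 to 0.6709 and from -0.4194 to 0.262 between PBS-treated genotypes. For HDM against PBS, Sdc1 ran from -0.1855 to 0.503 in WT and from -0.1629 to 0.5896 in TG mice, and in the interaction from -0.3824 to 0.3798. The interaction value of Tnfrsf17, which depends on how 0 counts are fitted and is no estimate of size, ran from -6.3944 to 0.0016.

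The replicate numbers were not treated as pairs in the main fits. Differences between replicates 1 and 2 of the groups compared correlated by only -0.02 to 0.02 across genes. The labels do not say whether libraries of the same replicate number were prepared together, and this correlation cannot decide it. Tnfrsf17, at 0 to 19 counts per library, did not pass the low-count filter between PBS-treated genotypes. Between HDM-treated genotypes its log2 fold change of 0.05 had a standard error of 1.34. What difference could be detected at this depth was not tested.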
